A study of Mus musculus with 24 samples.

Results

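The effect of interleukin-1β (IL-1β) added on top of tumour antigen was measured in 12 co-cultures, chosen by their titles from the 24 sequenced: 6 that received antigen plus IL-1β at 500 pg/ml and 6 that received antigen alone. Each set of 6 held 3 co-cultures with wild-type (WT) bone-marrow-derived macrophages and 3 with Tmem175-/- (knockout) macrophages, so the groups were WT_Ag, WT_Ag_IL1b, KO_Ag and KO_Ag_IL1b. All 12 also contained spleen lymphocytes from mice bearing B16-F10-OVA tumours, a melanoma line that carries ovalbumin, and all received B16-F10-OVA tumour cell antigen. The effect common to both genotypes was estimated from 6 libraries a side, with genotype as a covariate. For comparison, 6 co-cultures with antigen plus IL-18 at 500 pg/ml and 6 without antigen were also used.

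IL-1β is an inflammatory cytokine that macrophages make as a precursor and release after inflammasome activation. It binds the receptor chain encoded by Il1r1 together with the accessory chain encoded by Il1rap, and the adaptor Myd88, the kinases Irak4 and Irak1 and the ligase Traf6 pass the signal on to NF-kB and MAP kinases. Il1r2 encodes a decoy receptor and Il1rn a receptor antagonist, and IL-1β also acts on lymphocytes, where it is known to favour cytokines of the type 17 family such as IL-17 and IL-22.

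The 12 libraries held 17744540 to 24898552 counts each. Nothing in the labels tells whether the 3 replicates came from different mice, preparations or wells. The p-values therefore cover only the spread between these samples, which may be technical, and no batch or date is given. The genotype field of all 6 knockout libraries used names other, consecutively numbered genes, whereas their titles say Tmem175-/-, and the genotype of the lymphocytes is not given. Tmem175, which encodes a lysosomal cation channel, stood at 13.7, 16.2 and 15.6 CPM (counts scaled to the size of the library) in WT_Ag and at 15.4, 15.9 and 15.8 in WT_Ag_IL1b. In the libraries labelled knockout it stood at 7.58, 8.70 and 8.09 CPM in KO_Ag and at 8.13, 9.20 and 8.39 in KO_Ag_IL1b, so it was below every WT library but not lost, and IL-1β did not change it detectably (adjusted p 0.611). Macrophage RNA dominated: 10 macrophage markers, such as Adgre1, Csf1r and Lyz2, summed to between 15100 and 25290 CPM, against 226 to 375 CPM for 15 T cell markers and 50.1 to 64.3 CPM for 10 B cell markers. Most of the T cell sum was Il7r, at group means of 190 to 309 CPM, and most of the B cell sum was Cd22, at 35.65 to 45.52 CPM. The defining T cell genes were present at low counts, with 19 to 47 counts of Cd3e and 20 to 46 of Trac per library. Of 7 melanoma markers, Tyrp1, Dct, Mlana, Tyr and Sox10 had at most 3 counts in any library. Pmel had more than 3 in at least 1 library but too few to be tested, and Mitf had group means of 75.7 to 86.6 CPM. The first principal component of the 12 libraries, with 86.3% of the variance, separated the genotypes. In such bulk RNA, fewer cells of a type and less RNA per cell cannot be told apart.

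IL-1β changed the transcriptome of the antigen-treated co-cultures little in size, but 340 of 13591 tested genes (2.5%) passed at an adjusted p under 0.05, by edgeR's quasi-likelihood test with Benjamini-Hochberg adjustment. Of these, 154 (1.13% of the tested genes) were higher and 186 (1.37%) lower with IL-1β, and at an unadjusted p under 0.05 there were 2635. The higher genes included Il22, Dcn, Cxcl10, Mmp13, Il1a and a set of guanylate-binding protein (GBP) genes, and the lower genes included Prss46, Bcl6, Atf4, Atf3 and Asns. The median absolute log2 fold change of the 340 genes was 0.157, and 63 of them exceeded 1.2-fold and 16 exceeded 1.5-fold. When the test itself asked for a change of more than 1.2-fold, 1 gene passed, Il22. The median log2 fold change of all tested genes was 0.0023, and 0.0029 with median-of-ratios scaling in place of TMM. The plot of change against level places the called genes across the range of levels.

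**Figure D1:**
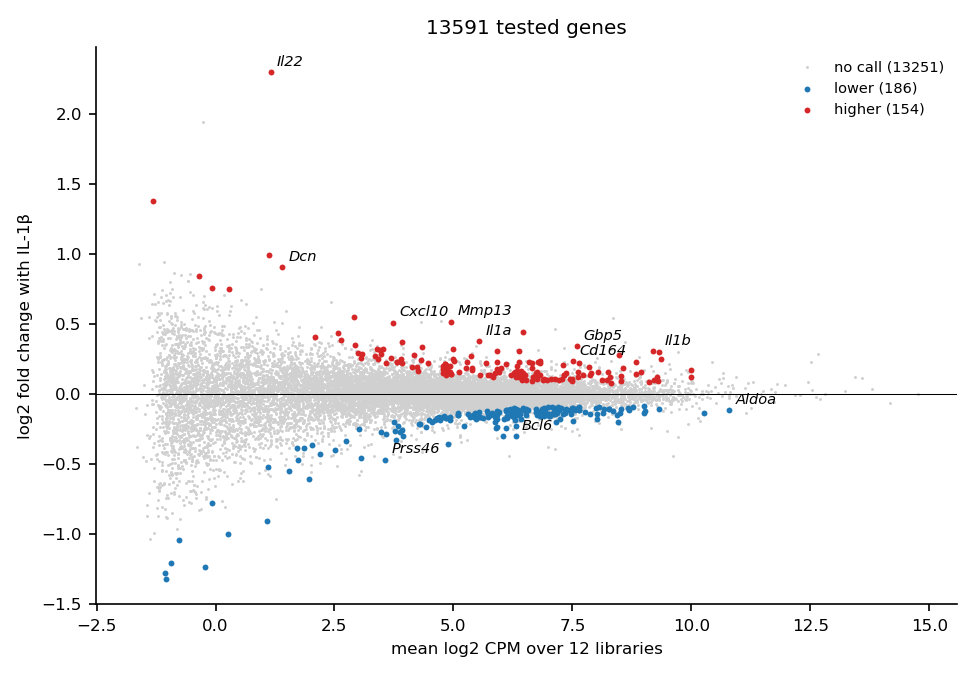
Log2 fold change with IL-1β (vertical axis, genotypes pooled) against the mean log2 CPM over 12 libraries (horizontal axis) for 13591 genes, with the 154 higher genes in red and the 186 lower genes in blue. Il22 lies far above the rest of the called genes at 2.30, whereas 21 of the 340 called genes lie more than 0.5 from 0.

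The number of calls depended on single libraries. Without antigen-only WT replicates 1, 2 or 3 there were 87, 690 and 130 calls, and without WT replicates 1, 2 or 3 with IL-1β there were 210, 90 and 139. Leaving out antigen-only knockout replicates 1, 2 or 3 gave 199, 711 and 70 calls, and leaving out knockout replicates 1, 2 or 3 with IL-1β gave 493, 163 and 87. All 340 genes kept their direction under every setting that tested them, and 58 genes, 38 higher and 20 lower, kept their call whichever library was left out. A stricter set of 32 genes kept it under all alternatives that gave them an adjusted p, the 1.2-fold test aside. They were 13 higher genes, among them Cd164, Il1a, Csf2rb, Il22, Acsl1, Mmp19, Fcgr3, Dcn, Socs1, Csf2rb2, Lpcat2 and Gpalpp1, and 19 lower genes, among them Prss46, Bcl6, Map3k20, Igf2r, Atf3, Bcl2l11, Crebbp, Rc3h1, Asns, Lrp1 and Hspa9. Of these, Cd164, Csf2rb, Csf2rb2, Acsl1, Fcgr3, Lpcat2, Gpalpp1, Map3k20, Igf2r, Bcl2l11, Crebbp, Rc3h1, Lrp1 and Hspa9 lie outside the naming rule and were chosen after their values were seen.

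IL-22, a cytokine of lymphocytes that acts on epithelia, gave the largest rise among the called genes. Il22 stood at 1.35, 0.877 and 1.52 CPM in WT_Ag and at 4.09, 3.53 and 5.80 in WT_Ag_IL1b. In the knockout co-cultures it stood at 0.466, 0.148 and 0.132 CPM with antigen and at 2.63, 2.61 and 2.61 with antigen plus IL-1β. Every library with IL-1β was above every library with antigen alone, also across genotypes. The pooled log2 fold change was 2.30 ± 0.260 (SE; 4.92-fold, adjusted p 0.000452). These levels rest on few reads, namely 24, 21 and 31 counts in WT_Ag, 82, 87 and 123 in WT_Ag_IL1b, 11, 3 and 3 in KO_Ag and 57, 54 and 51 in KO_Ag_IL1b. DESeq2 gave the gene no adjusted p. The 15 T cell markers summed to 226 to 253 CPM in WT_Ag and 239 to 248.7 in WT_Ag_IL1b, to 302 to 367 in KO_Ag and 329 to 375 in KO_Ag_IL1b, and 0 of the 15 passed. Most of that sum was Il7r, with means of 190, 193, 293 and 309 CPM in these groups, so it says little about the amount of T cell RNA. Cd3e had means of 1.21, 1.19, 1.87 and 1.48 CPM in the same order. The summed CPM of natural killer cell markers was 6.85 to 13.1 with antigen and 6.73 to 11.6 with IL-1β.

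Of 10 genes of the type 17 list, 4 had enough counts to be tested, and Il22 was the 1 called. Il23r, which encodes a receptor chain for IL-23, and the transcription factor genes Ahr and Batf were well measured, with group means of 14.8 to 19.4 CPM, and did not pass (adjusted p 0.295, 0.996 and 0.389). Csf2, which encodes the growth factor GM-CSF, was too low for the filter on low counts, with 0 to 6 counts in each antigen library and 8 to 14 in each IL-1β library, so its groups did not overlap. Its counts summed to 22 against 62, and in the fit without the filter its log2 fold change was 1.48 ± 0.364 (adjusted p 0.00352). Il17a, the founding cytokine of the family, had 1 count in all antigen libraries and 12 in all IL-1β libraries (adjusted p 0.0768 without the filter), and Il17f had 19 and 17 (adjusted p 0.939). At this depth no difference in either IL-17 gene was detectable.

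Among IL-1 family ligands, antagonists and receptors, 3 of 13 tested members (of 16 listed) rose and 0 fell, with a median log2 fold change of 0.06. Il1a, which encodes the sister ligand IL-1α, stood at 47.8, 43.8 and 45.4 CPM in WT_Ag and at 65.1, 64.3 and 59.6 in WT_Ag_IL1b. The knockout libraries held 34.8, 36.2 and 35.2 CPM with antigen and 44.3, 40.4 and 43.2 with IL-1β. The groups did not overlap within either genotype, and the log2 fold change was 0.37 ± 0.0404 (adjusted p 3.54e-05).

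Il1b itself stood at 787, 729 and 770 CPM in WT_Ag and at 1000, 841 and 892 in WT_Ag_IL1b. In KO_Ag it stood at 365, 380 and 405 CPM and in KO_Ag_IL1b at 532, 424 and 506. All IL-1β libraries were above the antigen libraries of their genotype, by a log2 fold change of 0.30 ± 0.0617 (adjusted p 0.0370). That call was lost without replicates 1 or 3 of WT_Ag (adjusted p 0.0842 and 0.0744), of WT_Ag_IL1b (0.0611 and 0.0600) or of KO_Ag (0.0885 and 0.0728), and without KO_Ag_IL1b replicate 3 (0.0903). It was also lost in the fit of all 24 libraries (0.243) and with a trend with transcript length removed (0.0595).

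Il18bp, which encodes the soluble antagonist of IL-18, rose by a log2 fold change of 0.22 ± 0.0437 (adjusted p 0.0228). This call was lost without KO_Ag replicate 1 or 3 (adjusted p 0.0566 and 0.0574), without KO_Ag_IL1b replicate 2 or 3 (0.0588 and 0.0638) and in the fit of all 24 libraries (0.524). The signalling receptor gene Il1r1 had a log2 fold change of -0.24 (adjusted p 0.354) and the accessory chain gene Il1rap of 0.10 (adjusted p 0.413). The decoy receptor gene Il1r2 stood at 0.52 ± 0.147 (adjusted p 0.0605), just outside the threshold. The antagonist gene Il1rn stood at -0.02 (adjusted p 0.922).

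No member of the signalling chain below the receptor passed in the main fit, beside 2.5% of all tested genes. At that share 0 calls in so short a list is not a result about the list. Of 16 such genes, from Myd88 and the Irak kinases to the kinases of the IKK complex, 0 rose and 0 fell, with a median of -0.03 and 13 of 16 values negative. The value closest to the threshold was that of Traf6, at -0.11 (adjusted p 0.0512). The 16 NF-kB subunit and feedback genes likewise held 0 calls in either direction, with a median of 0.0022. With the replicate number added as a covariate, 4 NF-kB genes rose and 2 fell, and 1 signalling gene fell. That model called 765 of all 13591 genes higher and 898 lower, so the 0 calls of the main fit depend on the model. Nfkbia, which encodes the inhibitor IκBα and is a classical target of NF-kB, had a log2 fold change of 0.01 ± 0.0660 (adjusted p 0.950). The deubiquitinase genes Tnfaip3 and Cyld stood at 0.10 (adjusted p 0.0886) and 0.09 (adjusted p 0.0603), and Nfkbiz, the gene of a nuclear IκB protein, at -0.24 (adjusted p 0.0972).

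Classical inflammatory cytokine genes held no call in the main fit. Of 15 tested, 0 passed in either direction, beside 2.5% of all tested genes, and the median was 0.01. With the replicate number added as a covariate, 2 rose and 2 fell, beside 765 and 898 of all 13591 genes. Il6 stood at 7.43, 4.51 and 5.21 CPM in WT_Ag and at 7.43, 5.92 and 6.37 in WT_Ag_IL1b. The KO_Ag libraries held 2.5, 1.98 and 2.68 CPM and the KO_Ag_IL1b libraries 3.70, 1.5 and 3.17, so that the groups overlapped in both genotypes. Its log2 fold change was 0.22 ± 0.174 (adjusted p 0.538), and that of Tnf was -0.03 ± 0.104 (adjusted p 0.920). Among CC chemokines 0 of 10 passed, which at a share of 2.5% over all genes says little about so short a list. Ccl9 was nearest the threshold at 0.16 (adjusted p 0.0551). With the replicate number as a covariate, 3 CC chemokine genes rose and 1 fell, beside the same counts over all genes.

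**Figure D2:**
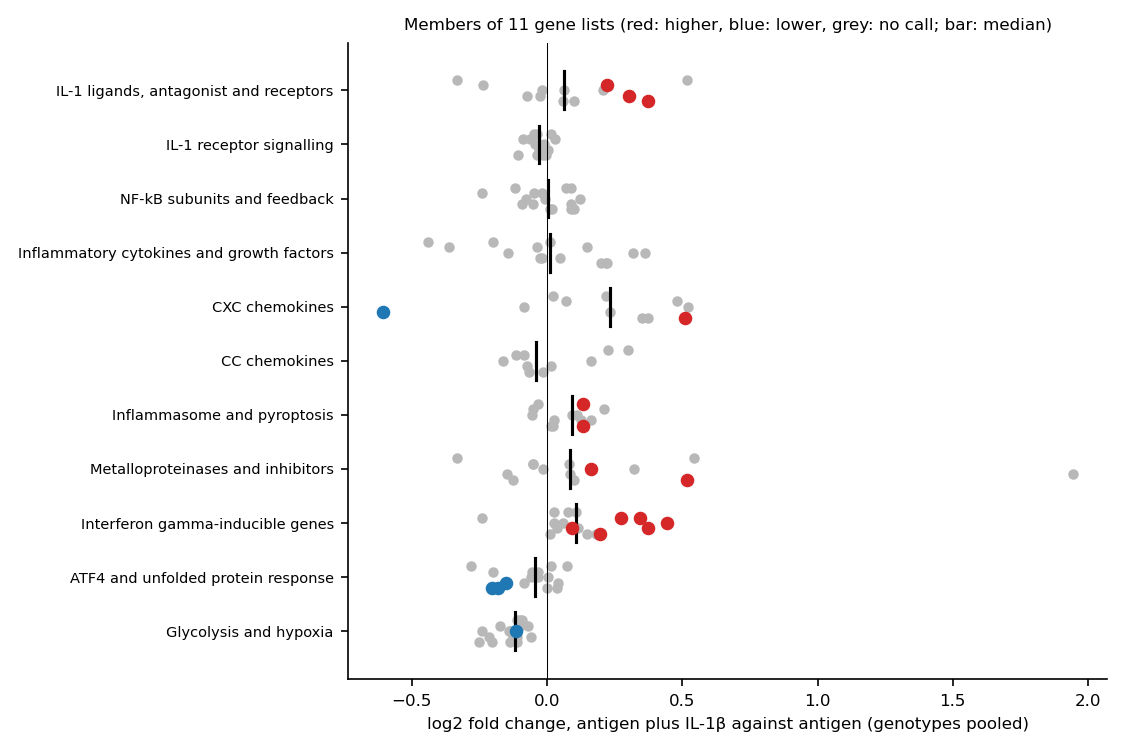
Log2 fold change with IL-1β (horizontal axis, genotypes pooled) of the tested members of gene lists (vertical axis), with called higher members in red, called lower members in blue, the others in grey and the list median as a black bar. The interferon gamma-inducible list holds 6 called members, all higher, while the IL-1 receptor signalling and NF-kB lists hold 0, beside 2.5% of all tested genes.

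Among 11 CXC chemokine genes, 1 rose and 1 fell, with a median of 0.23 and 9 positive values. Cxcl10, which attracts activated T cells through the receptor CXCR3, stood at 13.7, 13.5 and 10.9 CPM in WT_Ag and at 16.8, 20.1 and 17.4 in WT_Ag_IL1b. KO_Ag values were 10.1, 8.75 and 8.18 CPM and KO_Ag_IL1b values 12.6, 13.2 and 12.4. The groups did not overlap within either genotype, and the log2 fold change was 0.51 ± 0.0677 (adjusted p 0.0004). The call was kept without any 1 library and lost in the fit of all 24 libraries (adjusted p 0.190). The neutrophil chemokine gene Cxcl1 stood at 0.35 ± 0.0945 (adjusted p 0.0554). Cxcl12, a chemokine gene of stromal cells, fell by 0.61 ± 0.144 on the log2 scale (adjusted p 0.0354), and lost its call without any 1 of 8 libraries (adjusted p 0.0558 to 0.108).

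The interferon gamma-inducible genes were the list with the most calls. Of 17 tested, 6 rose and 0 fell, 16 had positive values, and the median was 0.11, whereas 50.9% of all tested genes were positive. Gbp5, which encodes a GTPase that binds lipopolysaccharide and promotes inflammasome assembly, stood at 168, 178 and 167 CPM in WT_Ag and at 229, 232 and 225 in WT_Ag_IL1b. With knockout macrophages it stood at 170, 171 and 173 CPM in KO_Ag and in KO_Ag_IL1b at 217, 188 and 215. The groups did not overlap within either genotype, and the log2 fold change was 0.34 ± 0.0358 (adjusted p 8.03e-05).

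Iigp1, an interferon-inducible GTPase gene of defence against vacuolar pathogens, stood at 322, 319 and 311 CPM in WT_Ag and at 367, 372 and 383 in WT_Ag_IL1b. It stood at 305, 336 and 334 CPM in KO_Ag and at 400, 389 and 420 in KO_Ag_IL1b, again without overlap. Its log2 fold change was 0.27 ± 0.0275 (adjusted p 2.09e-05). Gbp4 rose by 0.44 ± 0.0640 (adjusted p 0.00902), Gbp7 by 0.19 ± 0.0286 (adjusted p 0.00126) and Irgm1 by 0.09 ± 0.0196 (adjusted p 0.0201). Socs1, which encodes a feedback inhibitor of cytokine receptors that signal through JAK kinases, rose by 0.37 ± 0.0689 (adjusted p 0.00967). The calls of Gbp5, Iigp1, Gbp4 and Gbp7 were kept without any 1 library but lost in the fit of all 24 libraries (adjusted p 0.443, 0.690, 0.377 and 0.572), while that of Socs1 was kept there too. That fit adds the libraries without antigen. In the knockout ones Gbp5, Iigp1, Gbp4 and Gbp7 stood at 45.4 ± 39.2, 72.4 ± 76.1, 24.6 ± 26.2 and 76.5 ± 45.1 CPM (SD, n = 3), with SDs of 3.31 to 6.49 in WT. The part of this spread in the lost calls was not tested. Irgm1, named here as a list member and not by the naming rule, was lost without WT_Ag replicate 3, WT_Ag_IL1b replicate 2, KO_Ag replicate 3 or KO_Ag_IL1b replicate 3, and in the fit of all 24 libraries.

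The GBP and immunity-related GTPase genes were then counted as a family by symbol, which was decided with their values in view. Of 23 tested, 12 rose and 0 fell, beside 1.13% and 1.37% of all tested genes. The 23 had 21 positive values, a median of 0.19 and a range from -0.08 to 0.99. In 11 of the 23 the groups did not overlap in either genotype. Across all genes, 238 (1.75%) were separated upward and 259 (1.91%) downward in both genotypes. Gbp11 stood at 5.57, 6.02 and 5.85 CPM in WT_Ag and at 7.43, 8.59 and 8.59 in WT_Ag_IL1b. In KO_Ag it stood at 5.80, 5.83 and 6.94 CPM and in KO_Ag_IL1b at 9.19, 9.25 and 9.67, and its log2 fold change was 0.55 ± 0.0696 (adjusted p 0.00025). Several of these genes are near-identical neighbours whose reads the authors' counting could have split or shared, so the values of single members are uncertain. Ifng, which encodes interferon gamma, stood at 0.35 ± 0.143 (adjusted p 0.175), from levels of 2.08 to 4.25 CPM.

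**Figure D3:**
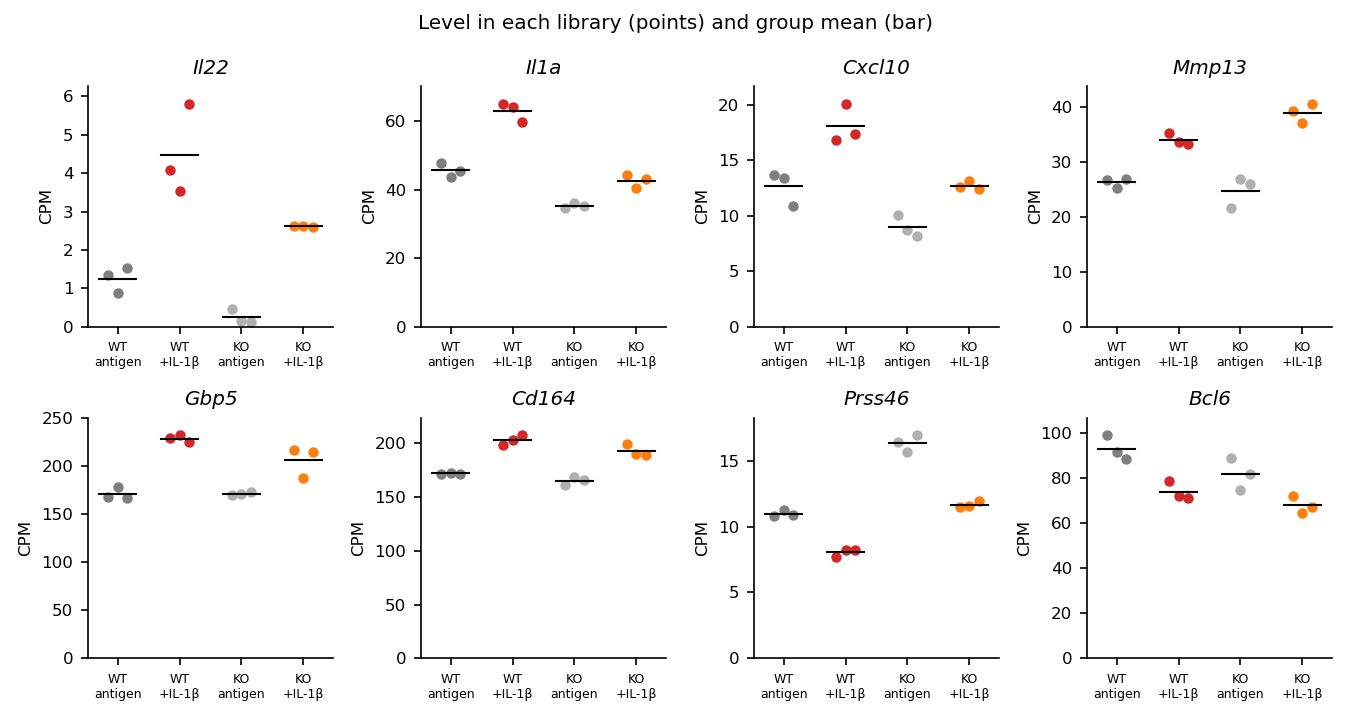
CPM (vertical axis, from 0) of 8 genes in each of the 12 libraries (points) with the mean of 3 libraries as a bar, for WT and knockout (KO) co-cultures with antigen and with antigen plus IL-1β (horizontal axis). In all 8 genes the IL-1β libraries lie to the same side of the antigen libraries in both genotypes, above them in Il22, Il1a, Cxcl10, Mmp13, Gbp5 and Cd164 and below them in Prss46 and Bcl6.

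Sequences upstream of 3 of these genes are shown because they hold, within 250 bases of the listed start of transcription, letters that match elements of the pathways above. Il1a, Il1b, Il22, Cd164 and Prss46 were searched too and held 0 matches in the 250 bases before the start that RefSeq lists. Whether the listed starts were the ones used in these cells was not checked, so 0 matches does not describe a promoter in use. Bcl6, a lower gene with 2 listed starts, held 1 gamma-activated core before 1 start and 3 before the other. The sequences come from RefSeq on GRCm38.p6. There the start region of Cxcl10 lies at chr5:92348890-92349139 on the minus strand, that of Gbp5 at chr3:142496684-142496933 on the plus strand and that of Mmp13 at chr9:7272264-7272513 on the plus strand. Capitals mark matches, on either strand, to a kappaB element (GGGA and TTCC with any 2 bases between them), the core of an interferon-stimulated response element (GAAA and GAAA with any 2 bases between them) or the core of a gamma-activated site (TTC and GAA with any 3 bases between them).
Cxcl10: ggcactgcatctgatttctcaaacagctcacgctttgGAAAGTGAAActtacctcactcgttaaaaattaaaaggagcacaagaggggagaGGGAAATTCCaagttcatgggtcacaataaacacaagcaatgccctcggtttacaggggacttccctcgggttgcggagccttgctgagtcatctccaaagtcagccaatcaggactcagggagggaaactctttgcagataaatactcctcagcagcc
Gbp5: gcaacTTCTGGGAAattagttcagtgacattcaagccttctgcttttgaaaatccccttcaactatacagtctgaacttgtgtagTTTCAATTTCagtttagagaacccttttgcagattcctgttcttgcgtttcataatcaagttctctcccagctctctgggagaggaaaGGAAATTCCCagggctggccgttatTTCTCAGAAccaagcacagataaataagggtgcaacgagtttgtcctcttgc
Mmp13: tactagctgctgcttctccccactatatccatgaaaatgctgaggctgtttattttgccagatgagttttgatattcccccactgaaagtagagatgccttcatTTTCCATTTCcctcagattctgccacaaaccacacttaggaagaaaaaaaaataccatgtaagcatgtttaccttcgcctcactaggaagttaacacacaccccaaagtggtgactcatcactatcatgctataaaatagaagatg
In Cxcl10 the capitals are the interferon-stimulated core, which begins 213 bases before the start, and the kappaB element, which begins 159 bases before it. In Gbp5 they are a gamma-activated core at 245 bases, an interferon-stimulated core at 165, a kappaB element at 77 and a further gamma-activated core at 52, and in Mmp13 an interferon-stimulated core at 146.

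The same letters were counted in all tested genes that RefSeq matched by symbol, 9959 in number. The window was longer here, from 250 bases before to 50 bases after the start. The kappaB element stood in 1.8% of them, in 9 of 116 matched higher genes (7.76%) and in 3 of 142 matched lower genes (2.11%). The interferon-stimulated core stood in 4.12% of all, in 17 of the higher genes (14.7%) and in 4 of the lower genes (2.82%). The gamma-activated core stood in 8.18% of all, in 13 higher (11.2%) and 9 lower genes (6.34%). Of the GBP and immunity-related GTPase genes 13 were matched, and 11 of these held the interferon-stimulated core and 6 the gamma-activated core. The 2 interferon motifs were added after the results were seen, and each motif was counted on its own, also where 2 overlap. A match describes letters and not a bound site.

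Of 14 genes of metalloproteinases, which cut the extracellular matrix, and their inhibitors, 2 rose and 0 fell, with a median of 0.08. Mmp13, which encodes a collagenase, stood at 26.7, 25.4 and 26.9 CPM in WT_Ag and at 35.3, 33.6 and 33.3 in WT_Ag_IL1b. The KO_Ag libraries held 21.6, 26.8 and 26.0 CPM and the KO_Ag_IL1b libraries 39.3, 37.2 and 40.6. No IL-1β library fell within the range of antigen libraries of its genotype, and the log2 fold change was 0.52 ± 0.0583 (adjusted p 0.00025; 0.0726 in the fit of all 24 libraries). Antigen itself had the opposite direction on this gene, a log2 fold change of -1.80 against co-cultures without antigen, a comparison that shares the antigen libraries.

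Mmp19 rose by 0.16 ± 0.0276 (adjusted p 0.00444). Mmp12, the macrophage elastase gene, stood at 318, 288 and 271 CPM in WT_Ag and 473, 375 and 397 in WT_Ag_IL1b, at 170, 288 and 257 in KO_Ag and 365, 350 and 353 in KO_Ag_IL1b. Its groups did not overlap within either genotype, but with a spread of this size it missed the threshold (0.54 ± 0.119, adjusted p 0.0505). The stromelysin gene Mmp3, at 0.0563 to 1.94 CPM, stood at 1.94 ± 0.504 on the log2 scale (adjusted p 0.0637). Dcn, which encodes the matrix proteoglycan decorin, rose by 0.91 ± 0.162 (1.87-fold, adjusted p 0.00737) from 1.14 to 2.75 CPM with antigen to 2.03 to 4.19 CPM with IL-1β.

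Dcn is a fibroblast marker, and the rest of that list did not rise with it. Of 12 fibroblast and stromal markers 1 rose and 0 fell, 11 were negative, and the median was -0.30. Col3a1 and Pdgfrb, a collagen gene and a growth factor receptor gene of stromal cells, stood at -0.58 (adjusted p 0.148) and -0.50 (adjusted p 0.0784). The 12 markers summed to between 198 and 294 CPM in WT_Ag and between 148 and 233 in WT_Ag_IL1b, and to between 69.0 and 80.2 in KO_Ag and between 36.4 and 89.4 in KO_Ag_IL1b. The sums overlapped within both genotypes, and their part in the fall of Cxcl12 was not tested.

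Of 13 inflammasome and pyroptosis genes 2 rose and 0 fell, with a median of 0.09. Nlrp3, the sensor gene of the inflammasome that matures IL-1β, stood at 93.6, 88.7 and 96.4 CPM in WT_Ag and at 104, 99.8 and 101 in WT_Ag_IL1b. It stood at 80.4, 79.5 and 81.9 CPM in KO_Ag and at 90.6, 86.2 and 88.7 in KO_Ag_IL1b, without overlap within a genotype, a log2 fold change of 0.13 ± 0.0260 (adjusted p 0.0129; 0.347 in the fit of all 24 libraries). Pycard, which encodes the adaptor of the same complex, rose by 0.13 ± 0.0327 (adjusted p 0.0367), a call lost without any 1 of 7 libraries (adjusted p 0.0550 to 0.102). Casp1, the protease gene of the complex, stood at 0.01 (adjusted p 0.813).

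Csf2rb, which encodes the beta chain shared by the receptors for GM-CSF, IL-3 and IL-5, stood at 411, 443 and 419 CPM in WT_Ag and at 501, 500 and 502 in WT_Ag_IL1b. KO_Ag values were 389, 440 and 436 CPM and KO_Ag_IL1b values 499, 486 and 488. The groups did not overlap within either genotype, by 0.23 ± 0.0277 on the log2 scale (adjusted p 0.00015). Csf2rb2, its near-identical mouse paralogue, rose by 0.16 ± 0.0292 (adjusted p 0.00987), and reads of the pair may have been split in counting. Cd164, a sialomucin gene of cell adhesion, had the smallest p of all: 172, 172 and 172 CPM in WT_Ag, 199, 203 and 207 in WT_Ag_IL1b, 161, 169 and 166 in KO_Ag and 199, 190 and 189 in KO_Ag_IL1b, a log2 fold change of 0.23 ± 0.0226 (adjusted p 2.09e-05).

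Csf3r, which encodes the receptor for the neutrophil growth factor G-CSF, rose by 0.15 ± 0.0296 (adjusted p 0.0131; 0.0515 without KO_Ag replicate 3). It was the 1 called of 12 tested neutrophil markers, which had a median log2 fold change of 0.14. Their sum was 1176 to 1274 CPM in WT_Ag and 1202 to 1270 in WT_Ag_IL1b, which overlapped, and 1155 to 1249 CPM in KO_Ag and 1271 to 1524 in KO_Ag_IL1b, which did not. That sum includes Csf3r itself, at group means of 222 to 252 CPM. In knockout co-cultures the means of Mmp8, S100a9 and S100a8 went from 271, 191 and 170 CPM with antigen to 364, 263 and 222 with IL-1β, while Lcn2 went from 266 to 243. In WT co-cultures Mmp8 went from 298 to 347 CPM, but S100a9 and S100a8 went from 186 and 172.5 to 175 and 162. The part of these markers in the rise of Csf3r was not tested. Further higher genes of macrophages, chosen after their values were seen, were Acsl1, which activates long-chain fatty acids (0.18 ± 0.0299, adjusted p 0.00387), and Fcgr3, a low-affinity receptor for IgG (0.17 ± 0.0300, adjusted p 0.00735). Of the 10 macrophage markers 0 passed, with a median of 0.10 and Mertk, an efferocytosis receptor gene, nearest the threshold at 0.18 (adjusted p 0.0513).

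Among the lower genes Prss46 had the smallest p. Prss46, which encodes a member of the trypsin-like serine protease family, stood at 10.8, 11.2 and 10.9 CPM in WT_Ag and at 7.68, 8.18 and 8.26 in WT_Ag_IL1b. With knockout macrophages it stood at 16.4, 15.7 and 16.9 CPM in KO_Ag and in KO_Ag_IL1b at 11.5, 11.6 and 11.9. Replicates lay close together and the groups did not overlap, with a log2 fold change of -0.47 ± 0.0496 (adjusted p 3.46e-05). Antigen had raised this gene by a log2 fold change of 3.53 over co-cultures without antigen.

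Bcl6, which encodes a transcriptional repressor known from germinal centre B cells and macrophages, stood at 99.0, 91.8 and 88.3 CPM in WT_Ag and at 78.6, 72.0 and 71.1 in WT_Ag_IL1b. In KO_Ag it stood at 88.8, 74.9 and 81.9 CPM and in KO_Ag_IL1b at 72.1, 64.5 and 67.2. The antigen libraries were all above the IL-1β libraries of their genotype, and the log2 fold change was -0.30 ± 0.0439 (adjusted p 0.00346). Of the other lower genes that kept their call throughout, Igf2r, the mannose 6-phosphate receptor gene of lysosomal sorting, stood at -0.15 ± 0.0246 (adjusted p 0.00444), and Bcl2l11, the gene of the death-promoting protein Bim, at -0.14 ± 0.0237 (adjusted p 0.00571). Crebbp, a histone acetyltransferase gene, stood at -0.18 ± 0.0329 (adjusted p 0.00914).

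Among 16 genes of ATF4 and the unfolded protein response, 3 fell and 0 rose, with a median of -0.04. Atf4, the transcription factor gene of the amino acid response, stood at 391, 342 and 381 CPM in WT_Ag and at 336, 317 and 332 in WT_Ag_IL1b. It stood at 396, 352 and 383 CPM in KO_Ag and at 337, 303 and 325 in KO_Ag_IL1b, without overlap within a genotype, a log2 fold change of -0.20 ± 0.0385 (adjusted p 0.0195). Leaving out WT_Ag replicate 1 (adjusted p 0.0576), WT_Ag_IL1b replicate 2 (0.0544), KO_Ag replicate 3 (0.0559) or KO_Ag_IL1b replicate 3 (0.0532) ended that call. Asns, the asparagine synthetase gene, fell by 0.18 ± 0.0347 on the log2 scale (adjusted p 0.0109) and Atf3, a stress-induced transcription factor gene, by 0.15 ± 0.0258 (adjusted p 0.0046), and both kept their calls under every alternative but the 1.2-fold test. The chaperone gene Hspa5 of the unfolded protein response stood at 0.02 (adjusted p 0.801), and Ddit3 at 0.00 (adjusted p 0.981).

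All 18 glycolysis and hypoxia genes had negative values, with a median of -0.12, but 1 of them passed in the main fit. With the replicate number added as a covariate, 16 of the 18 were called lower, beside 898 of all 13591 genes. Aldoa, the aldolase gene, stood at 1951, 1864 and 1967 CPM in WT_Ag and at 1822, 1778 and 1782 in WT_Ag_IL1b. It stood at 1789, 1706 and 1827 CPM in KO_Ag and at 1677, 1537 and 1660 in KO_Ag_IL1b, without overlap within a genotype, a log2 fold change of -0.12 ± 0.0253 (adjusted p 0.0228). The call was lost without WT_Ag replicate 1 or 3 (adjusted p 0.0655 and 0.0592), WT_Ag_IL1b replicate 2 or 3 (0.0593 and 0.0558) or KO_Ag replicate 3 (0.0716), and in the fit of all 24 libraries (0.0724). The list median stayed negative over the alternatives, from -0.15 to -0.09. The 10 MHC class II genes all had positive pooled values, with a median of 0.12, and 0 passed. For some, the genotypes differed in sign. H2-Aa had means of 157 and 146 CPM in WT_Ag and WT_Ag_IL1b, against 182 ± 50.1 (SD, n = 3) and 220 ± 21.9 in KO_Ag and KO_Ag_IL1b. In the same order Cd74 had means of 306 and 286 CPM, against 378 ± 95.2 and 453 ± 47.8. H2-Ab1, H2-Eb1, Ciita and H2-Ob also had lower means with IL-1β in WT only. H2-DMa, H2-DMb1, H2-Oa and Ctss had higher means in both genotypes. Of 11 tested cytotoxic effector genes, such as Gzmb and Prf1, 0 passed, and their median was -0.18.

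Tested in each genotype alone, 20 genes (0.147% of those tested) passed in WT co-cultures, 14 higher (0.103%) and 6 lower (0.0441%), and 20 (0.147%) in knockout co-cultures, 16 higher (0.118%) and 4 lower (0.0294%). In both were Cd164, Iigp1, Prss46, Il1a, Gbp5, Csf2rb, Mmp13 and Il22, that is 8 of 20 in each. The 2 tests contrast different libraries but are not independent, since they share 1 estimate of spread from all 12. Of the 20 genes called in WT, 19 had the same sign in knockout co-cultures and 13 had it at an unadjusted p under 0.05, and of the 20 called in knockout co-cultures, 19 had the same sign in WT and 17 at that p, beside 63.8% of same signs over all tested genes. Across the 9995 genes with a mean log2 CPM of at least 2, the 2 sets of log2 fold changes had a Pearson r of 0.301, given as a description, since genes are not independent replicates.

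The difference between the genotypes was tested as an interaction. By edgeR's quasi-likelihood test 0 of 13591 genes passed (0%), by DESeq2 0, and at an unadjusted p under 0.05 there were 562 in edgeR. The IL-1β effect on Il22 was 1.85 ± 0.246 on the log2 scale in WT co-cultures and 3.33 ± 0.362 in those with knockout macrophages, a difference of 1.48 ± 0.487 (unadjusted p 0.00704, adjusted p 0.9995). Mmp13 stood at 0.37 ± 0.0660 and 0.66 ± 0.0654 (difference 0.28 ± 0.0931, unadjusted p 0.00687), and Il1a at 0.47 ± 0.0478 and 0.27 ± 0.0507 (difference -0.20 ± 0.0697, unadjusted p 0.0108). The plot of the effect in one genotype against the other shows both sets.

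The counts within a genotype also moved with single libraries. In WT they were 8, 39 and 6 without WT_Ag replicates 1, 2 and 3, 12, 5 and 7 without WT_Ag_IL1b replicates 1, 2 and 3, and 39 without KO_Ag replicate 1, which enters the shared estimate of spread. In knockout co-cultures they were 10, 322 and 7 without KO_Ag replicates 1, 2 and 3, 6 without KO_Ag_IL1b replicate 3, 10 and 8 without WT_Ag_IL1b replicates 1 and 3, 11 without WT_Ag_IL1b replicate 2 and 8 without WT_Ag replicate 3.

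**Figure D4:**
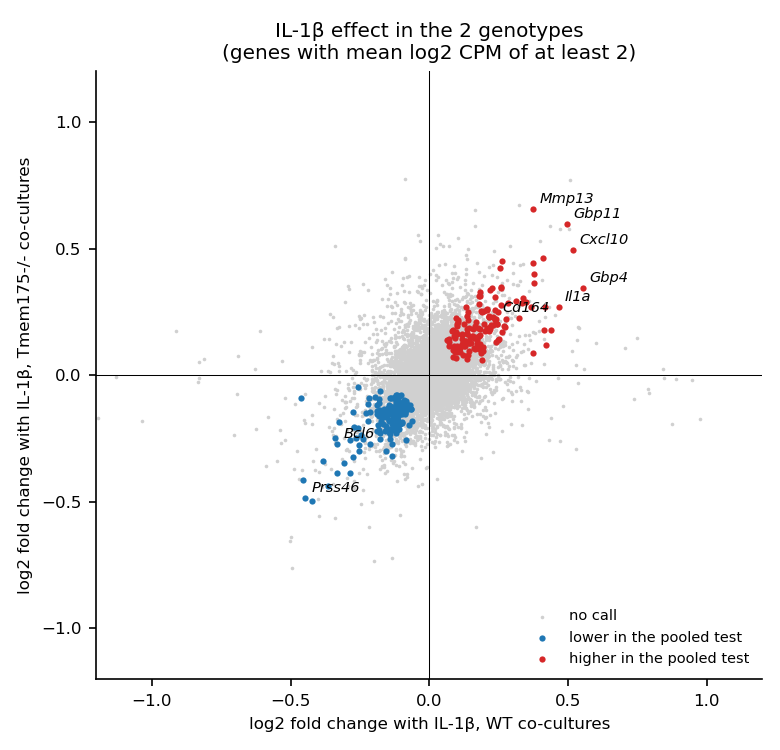
Log2 fold change with IL-1β in knockout co-cultures (vertical axis) against that in WT co-cultures (horizontal axis) for 9995 genes with a mean log2 CPM of at least 2, of which 17 lie outside the axes. Genes called in the pooled test (red higher, blue lower) lie mostly in the quadrants of equal sign, which that test favours by its construction.

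IL-18, a cytokine of the same family that signals through its own receptor and Myd88, was given at the same dose of 500 pg/ml. Compared directly, antigen plus IL-1β and antigen plus IL-18 differed in 164 of 13565 genes (1.21%), 113 higher (0.833%) and 51 lower (0.376%) with IL-1β. This count too moved with single libraries: it was 71, 53 and 83 without WT_Ag_IL1b replicates 1, 2 and 3, and 321, 122 and 89 without KO_Ag_IL1b replicates 1, 2 and 3. Without replicates 1, 2 and 3 of the IL-18 libraries it was 69, 183 and 80 in WT and 126, 641 and 79 in knockout co-cultures. Added to antigen, IL-18 gave 1 call among 13588 genes (0.00736%), the nuclear long noncoding RNA Neat1 at a log2 fold change of 0.23, with 1190 genes at an unadjusted p under 0.05. The IL-1β and IL-18 effects against antigen share the 6 antigen libraries, so they are given side by side and the cytokines are tested against each other only directly. The direct comparison in turn shares the 6 IL-1β libraries with the IL-1β effect. Most genes named below were chosen by that effect or by the direct comparison itself, which favours a difference in the same direction.

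Il22 had a mean of 4.49 ± 1.19 CPM (SD, n = 3) with IL-1β and 1.01 ± 0.250 with IL-18 in WT, and of 2.63 ± 0.013 and 0.521 ± 0.232 in knockout co-cultures, a direct log2 fold change of 2.2 ± 0.178 (adjusted p 4.87e-07). For Mmp13 the means were 34.2 ± 1.11 CPM with IL-1β and 21 ± 3.18 with IL-18 in WT and 39.2 ± 1.77 and 25.6 ± 1.59 in knockout co-cultures, a direct difference of 0.66 ± 0.0549 (adjusted p 2.55e-06). Both genes were thus higher with IL-1β in either genotype.

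Il1a stood at a direct difference of 0.50 ± 0.0524 (adjusted p 0.000118), Cxcl10 at 0.57 ± 0.0903 (adjusted p 0.00932) and Gbp11 at 0.55 ± 0.0872 (adjusted p 0.00426), beside log2 fold changes of -0.12, -0.06 and 0.00 for IL-18 against antigen. On the lower side Prss46 stood at -0.40 ± 0.0702 (adjusted p 0.00929) and Bcl6 at -0.22 ± 0.0430 (adjusted p 0.0205), beside -0.07 and -0.09 for IL-18 against antigen. Prokr1, a G-protein-coupled receptor gene for prokineticins, stood at -0.31 ± 0.0706 (adjusted p 0.0327). Of 23 GBP and immunity-related GTPase genes 9 were higher with IL-1β than with IL-18, beside 0.833% of all tested genes. This family was formed with its IL-1β values in view, and the same IL-1β libraries enter here, so the count is not separate support.

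Not every gene called against antigen separated the cytokines. Fos, an immediate early gene, rose by 0.23 ± 0.0509 with IL-1β (adjusted p 0.0379), stood at 0.25 ± 0.0583 with IL-18 (adjusted p 0.267), and the direct difference was -0.02 ± 0.0343 (adjusted p 0.802). Its IL-1β call was lost without any 1 of 7 libraries (adjusted p 0.0535 to 0.0927). Atf3 and Igf2r, both called lower with IL-1β, had direct differences of -0.05 ± 0.0314 (adjusted p 0.442) and -0.01 (adjusted p 0.910). Neat1, the gene called for IL-18, also rose with IL-1β, by 0.14 ± 0.0275 (adjusted p 0.0136), with a direct difference of -0.09 (adjusted p 0.0985).

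**Figure D5:**
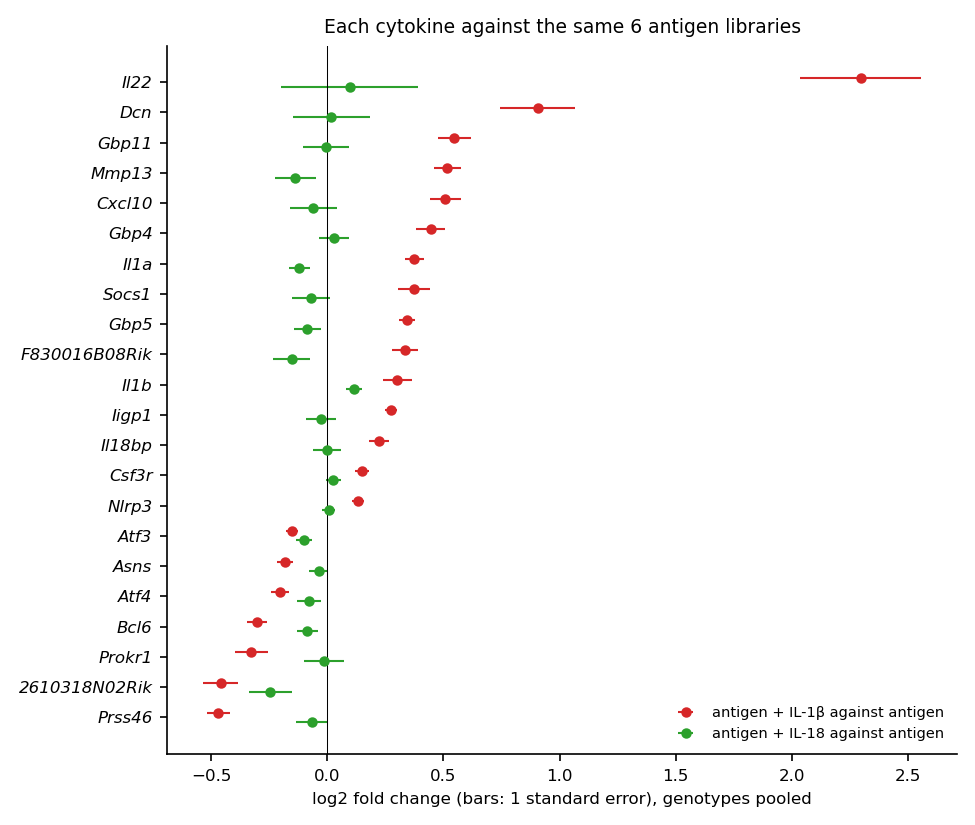
Log2 fold change (horizontal axis, with 1 standard error) of 22 genes called with IL-1β (vertical axis), for antigen plus IL-1β against antigen in red and antigen plus IL-18 against the same antigen libraries in green. From Il22 to Iigp1 in the upper part the red points lie to the right of the green ones, with Il22 at 2.30 against 0.10, and Prss46 at the foot lies at -0.47 against -0.07.

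Antigen itself changed far more genes than IL-1β added to it, 10350 of 13763 (75.2%; 37.1% higher and 38.1% lower) against co-cultures without antigen. That comparison shares the 6 antigen libraries with the IL-1β effect, so the values of single genes are only set side by side. Antigen raised Il1b, Il22 and Il1a by log2 fold changes of 6.92, 4.63 and 4.25, and IL-1β moved them by 0.30, 2.30 and 0.37. Bcl6 and Prss46 rose with antigen, by 0.55 and 3.53, and fell with IL-1β, while Cxcl10 had -0.14 with antigen (adjusted p 0.708) and 0.51 with IL-1β. The pooled antigen value of Cxcl10 averages genotypes that differed in sign: its level was 19.7 ± 3.50 CPM (SD, n = 3) without and 12.7 ± 1.57 with antigen in WT co-cultures, and 6.45 ± 4.5 and 9.05 ± 1.00 CPM in knockout co-cultures, a difference between genotypes that was not tested.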

How the data were processed

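RNA of mouse macrophage and lymphocyte co-cultures was sequenced by the authors, who deposited raw counts per Ensembl gene, 1 column per library. Reads were trimmed with fastp and the genome build was GRCm39, per the submitters' processing notes, and the aligner, counter and annotation release are not given in the sources used here. All columns were used (0 left out). Groups came from the sample titles. Of 55487 identifiers 346 had no symbol.

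Genes of the 12 libraries were kept with edgeR's filterByExpr at its defaults (13591 genes, 99.9% of counts), libraries were scaled by TMM, and a robust quasi-likelihood model (edgeR 4.0.16, R 4.3.3) with genotype and IL-1β was fitted, with 9 residual degrees of freedom. Effects within a genotype and their difference came from a fit of 4 group means (8 residual degrees of freedom). The other comparisons used their own 12 libraries in the same way. Calls are at a Benjamini-Hochberg adjusted p under 0.05 over all tested genes. Standard errors are the log2 fold change divided by the root of the F statistic. CPM values use the TMM factors, and the common biological coefficient of variation between replicates was 4.48% at 17744540 to 24898552 counts a library. Pairs of replicates differed by more than counting noise (chi-square per degree of freedom 1.79 to 9.60), so no library was taken to be deposited more than once; the spread between them may still be technical. Total counts, genes detected and the mitochondrial, ribosomal protein and immunoglobulin shares did not differ detectably between antigen and IL-1β libraries (exact two-sided permutation test within genotype, 400 arrangements, p 0.145 to 0.98, with 0.005 the smallest it can give). The scripts were tested on simulated data.

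Named genes were the 12 highest and 12 lowest called genes with a mean log2 CPM of at least 2 and the same sign in both genotypes, up to 5 called genes per list, all members of the IL-1 and NF-kB lists, 5 genes on each side of IL-1β against IL-18, and Tmem175. The comparison, lists and rule were chosen with earlier results of these data known. Genes named outside the rule, list members without a call among them, were chosen after their values were seen, and some genes the rule allows are only counted or not reported here. Alternatives were DESeq2 1.42.0 and its size factors, no filter, a replicate block, all 24 libraries, group means, a 1.2-fold test and leaving out each library. Upstream sequences are RefSeq's on GRCm38.p6, and transcript lengths are GENCODE's.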

Additional observations from a re-analysis of the deposited data

How the results depend on the processing

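For the pooled IL-1β effect, 340 genes (154 higher, 186 lower), the count of calls was 525 with DESeq2 (256 higher, 269 lower), 1007 with no filter on low counts (477 and 530), 193 in the fit of all 24 libraries (70 and 123) and 1 with the 1.2-fold test (1 and 0). Leaving out both antigen-only libraries numbered 1, an alternative added after the data were seen because they stood apart on the second principal component, gave 94 (65 and 29). Leaving out 1 library gave 70 to 711 calls (45 to 314 higher, 25 to 401 lower). Median-of-ratios factors gave 342 calls, group means 283 and the removal of a trend with transcript length, also added afterwards, 291. The median longest transcript was 3154.5 bases in higher, 4400.5 in lower and 3188 in all tested genes. Over 9989 genes, Spearman's rho between log2 fold change and length was -0.149 for IL-1β against antigen. It was -0.403 for IL-18 against the same antigen libraries and 0.172 for IL-1β against IL-18. The source of this trend was not tested.

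Within WT the 20 calls became 32 with DESeq2, 190 with no filter, 8 in the fit of all 24 libraries and 5 to 39 without 1 library. Within knockout co-cultures the 20 calls became 93, 521, 6 and 6 to 322. The interaction had 8 calls with no filter and 0 to 0 without 1 library. IL-1β against IL-18, 164 calls, gave 362 with DESeq2, 657 with no filter, 68 in the fit of all 24 libraries and 53 to 641 without 1 library. The log2 fold change of Tmem175, 0.06, was 0.0025 without both antigen-only libraries numbered 1. None of the 340 called genes changed direction, but list medians near 0 crossed it, from -0.02 to 0.04 for the NF-kB list and from -0.09 to 0.09 for CC chemokines. The balance of pooled calls turned to more higher than lower genes without WT_Ag replicate 1 (54 and 33), WT_Ag_IL1b replicate 2 or 3 (55 and 35, 79 and 60), KO_Ag replicate 1 or 3 (107 and 92, 45 and 25) or KO_Ag_IL1b replicate 2 or 3 (96 and 67, 50 and 37). The causes of these shifts were not tested.

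The labels number the replicates alike in all groups. Deviations of same-numbered libraries from their group means correlated at -0.002 to 0.263 over 18 pairs of groups and numbers, 10 of them over 0.1. The mean over pairs with other numbers was -0.0574. With 3 candidates for each match, 26 of 36 matches were best with the own number. That is a hint from the data and not from the design, so the samples were taken to share only a number. A replicate block gave 1663 pooled calls (765 higher, 898 lower), a replicate block within genotype 1588 (726 and 862), and the replicate block gave 476 calls in WT (222 higher, 254 lower, against 14 and 6), 1088 in knockout co-cultures (532 and 556, against 16 and 4), 5 for the interaction and 899 for IL-1β against IL-18. Of the 340 genes 339 were called with it, and of the 18 glycolysis and hypoxia genes 16 were lower with it, against 1.

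DESeq2 gave no adjusted p for 35 of the 340 genes. Depth limits the low genes most: with 3 to 31 counts per antigen library Il22 can be followed, while Il17a, with 1 count in all 6, cannot.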

Other observations

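A few genes outside the lists and the naming rule, chosen after their values were seen, complete the picture. The 3 neighbouring purinergic receptor genes P2ry12, P2ry13 and P2ry14, which bind nucleotides and nucleotide sugars, all rose with IL-1β, by log2 fold changes of 0.26, 0.32 and 0.27. Il12rb1, which encodes a receptor chain for IL-12 and IL-23, stood at 14.9, 15.6 and 15.6 CPM in WT_Ag and 17.4, 18.9 and 17.4 in WT_Ag_IL1b, and at 16, 17.7 and 17.4 in KO_Ag and 22.4, 20.8 and 21.2 in KO_Ag_IL1b, a log2 fold change of 0.28 ± 0.0463 (adjusted p 0.00389 by edgeR's quasi-likelihood test; 0.306 in the fit of all 24 libraries). Lrp1, a large endocytic receptor gene that kept its call throughout, stood at -0.14 with IL-1β and at -0.17 with IL-18 against the same antigen libraries, with a direct difference of 0.04 (adjusted p 0.670).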
